A study of Triticum aestivum with 72 samples.

Results

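The 150 probe sets described here were those whose signal followed PsbP most closely in wheat seeds 5 days after anthesis. PsbP is a subunit of the oxygen-evolving complex of photosystem II, encoded by LOC543290. Members were taken from the non-control probe sets of an Affymetrix wheat array with a mean log2 intensity of 6 or more. They were the 150 with the highest Pearson's r, over all 72 arrays, with the mean log2 intensity of the 2 PsbP probe sets. Probe sets of PsbP itself, of PsbO (LOC543291), petC, FBP, PRK (LOC543283), Trx-M (LOC542973) and rbcl (LOC100049018) were left out beforehand, since they are described here only as reference genes. Of 61290 probe sets on the array, 61179 were not Affymetrix controls, 25402 of these had a mean of 6 or more, and 25390 remained to be ranked. The members were thus selected on the log2 intensities of these same arrays, so their r with PsbP, and the line and replicate differences that follow from it, are given as descriptions.

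The study profiled 36 lines derived from the wheat cross RL4452 × AC Domain, each with 2 arrays from separate biological replicates, and neither parent was among the arrays analysed here. The lines were G13, F29, H10, G32, H5, DH91, F36, A91, E5, D15, G30, B68, C31, DH95, A81, A40, A88, A35, A10, C25, F38b, F38a, D39, B33, J15, F82, C22, F48, F44, H8, B11, H23, B65, C10, A77 and H9. All were untreated plants from field rows at Winnipeg, at the same seed age of 5 days. By the labels, what distinguishes one group from another is the genotype of the line. The arrays also differed in hybridisation day and in an indirect sign of RNA integrity, as given below. Each sample was a tube of whole frozen seeds from tagged spikes, so its RNA mixes maternal seed coat layers, endosperm and embryo, and fewer cells of a type cannot be told apart from less RNA per cell. By their titles, the arrays of 35 lines are replicates 1 and 3, and those of H9 are replicates 2 and 3.

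In photosystem II, light energy drives the splitting of water, and the manganese cluster that performs this reaction is stabilised on the lumen side of the thylakoid membrane by a set of extrinsic proteins that includes PsbO and PsbP. These proteins are encoded in the nucleus, made in the cytosol and imported into the chloroplast. A young cereal caryopsis is green because cells of the inner pericarp, a maternal layer, hold chloroplasts, and these layers photosynthesise while the endosperm is still forming. The other reference genes serve the same organelle: petC encodes the Rieske iron-sulphur protein of the cytochrome b6f complex, FBP a fructose-bisphosphatase, PRK the phosphoribulokinase of the Calvin cycle, Trx-M a plastid thioredoxin, and rbcl the large subunit of Rubisco, which is encoded in the plastid.

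Some properties of the arrays touch the results below. In 12 lines (H5, A91, B11, F38a, A40, E5, F36, C25, G32, J15, DH91 and D15) the arrays of a line lay on opposite sides in at least 32.4% of 170 probe sets with separate high and low classes of arrays, against at most 24.7% in the other 24 lines, and whether both arrays of such a line are of one genotype is uncertain. The limit of 30% that sets these lines apart was chosen after the values were seen. Farthest from the mean array were the replicate 3 arrays of C31 and B33 and the replicate 1 array of B65. Arrays were hybridised on 12 days, of which 3 held both replicate 1 and replicate 3 arrays. RNA integrity was not measured directly. Its indirect sign here was the mean log2 difference between the 3 prime and 5 prime probe sets of 7 wheat control genes. This difference, called the 3 prime to 5 prime ratio, ran from 0.51 to 1.79 over the arrays and rises as the 5 prime ends of transcripts are lost. As for tissue, AGP-S, a subunit of ADP-glucose pyrophosphorylase of the endosperm, had a mean level of 11.19, while 10 of the 11 gliadin and glutenin probe sets had a mean below 6, as did all Em probe sets of the embryo.

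PsbP varied in a graded way over the arrays. Its probe set Ta.85.1.S1_at had log2 intensities from 11.28 in the replicate 3 array of C31 to 12.92 in the replicate 1 array of C25, with a median of 12.27. Its second probe set, TaAffx.120874.1.S1_x_at, ran from 7.93 in the same C31 array to 10.60 in the replicate 3 array of G13, with a median of 9.37. The r between these PsbP probe sets over 72 arrays was 0.855. The mean of both, against which members were ranked, lay between 9.60 and 11.70, and its intraclass correlation, which is the part of the total variance found between lines rather than within them, was 0.404. Levels of different probe sets are not compared here, because probes differ in brightness.

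The reference genes followed PsbP to different degrees. PsbO (Ta.841.1.S1_a_at), the partner of PsbP in the oxygen-evolving complex, had an r of 0.855 with the PsbP mean, and Trx-M (Ta.136.1.S1_at) had 0.765. The r was 0.660 for FBP probe set Ta.439.1.S1_at, 0.634 for petC probe set Ta.861.1.S1_at and 0.427 for PRK probe set Ta.23158.1.S1_at. Another FBP probe set, TaAffx.106041.1.S1_at, ran the other way at -0.429. Of 28 rbcl probe sets, the 4 with a mean of 6 or more had r between -0.317 and 0.208. Among these reference probe sets, those of PsbO and Trx-M had r values inside the range of the members.

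Members had r values from 0.762 to 0.942 with PsbP, with a median of 0.791, against a median of 0.0969 over the 25390 probe sets ranked. Both arrays of a line, and arrays of one day, share conditions, so the 72 points are not independent, and no p-value is given. There was no sharp edge at the end of the list. The members just inside were TaAffx.82031.1.S1_s_at, TaAffx.128578.1.S1_at and Ta.9760.2.S1_at, each with 0.7625, and the probe sets just outside were TaAffx.112639.1.S1_at with 0.7620, Ta.28154.2.S1_s_at with 0.7618 and Ta.9181.2.S1_x_at with 0.7615. In the opposite direction the most negative r was -0.731, for TaAffx.111227.1.S1_at, so 0 probe sets ran against PsbP as closely as the members ran with it.

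**Figure D1:**
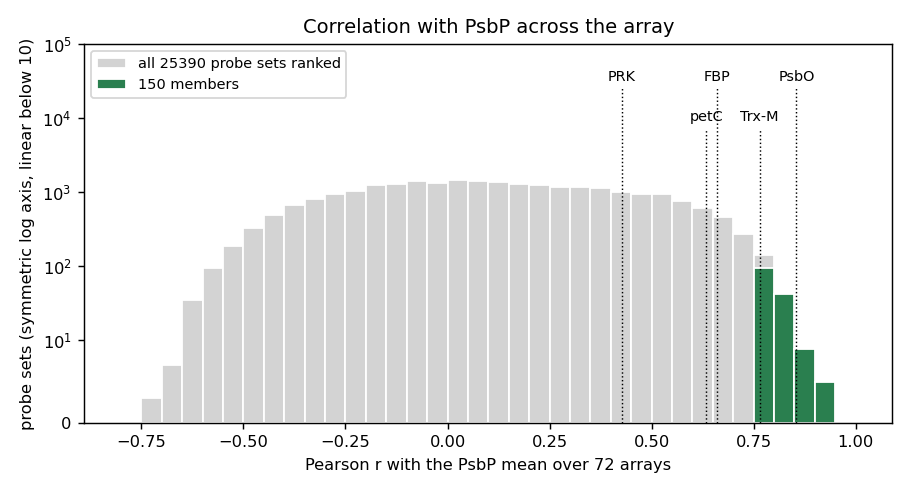
Number of probe sets (symmetric log axis, linear below 10) by Pearson's r with the PsbP mean over 72 arrays, for all 25390 probe sets ranked (grey) and the 150 members (green). Dotted lines mark the probe sets of PRK, petC, FBP, Trx-M and PsbO. The members form the right end of a continuous distribution, from 0.762 to 0.942.

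The closest followers came in pairs of probe sets built on the same transcript cluster. Ta.1139.1.S1_at had an r of 0.942 with the PsbP mean and Ta.1139.1.S1_x_at 0.935. The PsbP probe sets, each a part of that mean, had 0.938 (Ta.85.1.S1_at) and 0.982 (TaAffx.120874.1.S1_x_at). Among the members, Ta.20639.3.S1_a_at with 0.923 and Ta.20639.3.S1_x_at with 0.914 came next. Ta.27646.1.S1_at with 0.908 and Ta.27646.1.S1_x_at with 0.877 followed. The supplied annotation gives none of these a gene, so no role can be stated for them. The other members among the 10 highest were Ta.6416.2.S1_a_at (0.868), Ta.30808.1.S1_s_at (0.864), Ta.25596.2.S1_at (0.864) and TaAffx.116549.1.S1_at (0.861), the last of which belongs to LOC100125732.

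Ta.1139.1.S1_at ran from 9.93 in the replicate 3 array of C31, through a median of 11.69, to 12.77 in the replicate 1 array of C25. In G13 it read 12.35 and 12.74, and in C25 it read 12.77 and 12.09. In B33 it read 10.16 and 10.34. The arrays of B33 thus lay below those of G13 and C25. B33 and G13 had the lowest and highest line means of this probe set, so this is a description of its ends. C31 was split, with 11.52 in replicate 1 and 9.93 in replicate 3. The slope of Ta.1139.1.S1_at was 1.19 log2 units per log2 unit of the PsbP mean.

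Ta.20639.3.S1_a_at had the same low end, with 9.70 in the replicate 3 array of C31, and its high end of 12.27 in the replicate 3 array of G13, around a median of 11.21. Ta.27646.1.S1_at ran from 9.31 to 11.66 between those arrays, with a median of 10.79. Ta.6416.2.S1_a_at ran from 8.69 in the replicate 3 array of C31 to 11.57 in the replicate 1 array of D15, with a median of 10.46. Ta.30808.1.S1_s_at had a flatter course, from 11.08 in the replicate 1 array of B33 to 12.63 in the replicate 3 array of G13, with a median of 12.02 and a slope of 0.63. Ta.25596.2.S1_at, which lay near the lower limit of the rule, ran from 4.91 to 7.61 around a median of 6.31, with the same C31 and G13 arrays at its ends.

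Only 11 of the 150 members carried a gene symbol, which is 7.33% of them, against 3.30% of the probe sets with a mean of 6 or more, and 139 are unnamed here. The 11 stand for 10 genes. All are locus symbols for which the supplied RefSeq table of the IWGSC CS RefSeq v2.1 assembly gives neither a synonym nor a description, so their functions are not stated. LOC100125732 (TaAffx.116549.1.S1_at, r = 0.861) ran from 6.35 through 7.93 to 9.26, and its slope was 1.23. LOC543355 (Ta.581.2.S1_a_at, 0.850) ran from 9.33 through 10.50 to 11.15, with its low end in the replicate 1 array of B33 and its high end in the replicate 1 array of B11. LOC100125730 (Ta.9773.2.S1_a_at, 0.831) ran from 7.56 in the replicate 1 array of A88 through 8.63 to 9.78 in the replicate 3 array of G13. The slopes of these 3 genes were 1.23, 0.72 and 0.94 log2 units per log2 unit of PsbP.

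LOC543248 (Ta.166.1.S1_a_at, r = 0.806) ran from 10.68 through 11.48 to 11.91, with a slope of 0.44. LOC732707 is read by a pair of members, Ta.27660.1.S1_at (0.800) and Ta.27660.1.S1_x_at (0.795), which spanned 10.69 to 12.12 and 10.88 to 12.18 and had their high ends in the replicate 1 array of C25. LOC543332 (Ta.135.1.S1_at, 0.800) ran from 11.91 through 12.91 to 13.30. Its low and high ends were again the replicate 3 arrays of C31 and G13.

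LOC100037649 (Ta.1395.1.S1_at, 0.786) ran from 11.28 through 11.96 to 12.35. LOC780650 (Ta.27569.1.S1_at, 0.774) ran from 7.33 through 8.95 to 9.62, and its lowest line mean was that of C31, not B33. LOC543069 (Ta.22964.1.S1_a_at, 0.771) ran from 10.59 through 11.83 to 12.29, and LOC542943 (Ta.24961.2.S1_x_at, 0.763) from 11.08 through 12.19 to 12.81. For both of these the lowest single array was the replicate 3 array of C31.

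A gene's other probe sets did not always follow PsbP with it. The 10 genes have 8 further probe sets, from 7 of the genes, of which 5 had a mean of 6 or more, and the r of all 8 with PsbP ran from -0.491 to 0.730 with a median of 0.422. For LOC543355 the member had 0.850 and Ta.581.1.S1_at had 0.334. For LOC100125732 the second probe set, Ta.5428.1.S1_at, had 0.510, and for LOC100125730 it was Ta.9773.1.S1_at with 0.512. The gap was small for LOC543069, where Ta.22964.1.S1_x_at had 0.669, and for LOC542943, where Ta.24961.1.S1_x_at had 0.730. For LOC780650 the second probe set, Ta.27569.1.A1_at, had a mean level of 4.21 and an r of -0.491.

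Across arrays the members rose and fell together. This follows from the rule, which chose each by its r with the PsbP mean over these arrays, so the values here are descriptions. The first principal component of the members, each scaled to unit variance, held 72.9% of their variance and the second 5.00%. The mean of the 150 members ran from 7.50 in the replicate 3 array of C31, through a median of 8.73, to 9.66 in the replicate 3 array of G13. In that G13 array 150 of the 150 members lay above their own median over arrays, and in the replicate 3 array of C31, both arrays of B33, the replicate 1 array of A88 and the replicate 3 array of F44, 0 did. In 14 arrays at least 140 members lay above their median, and in 15 arrays at most 10 did.

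**Figure D2:**
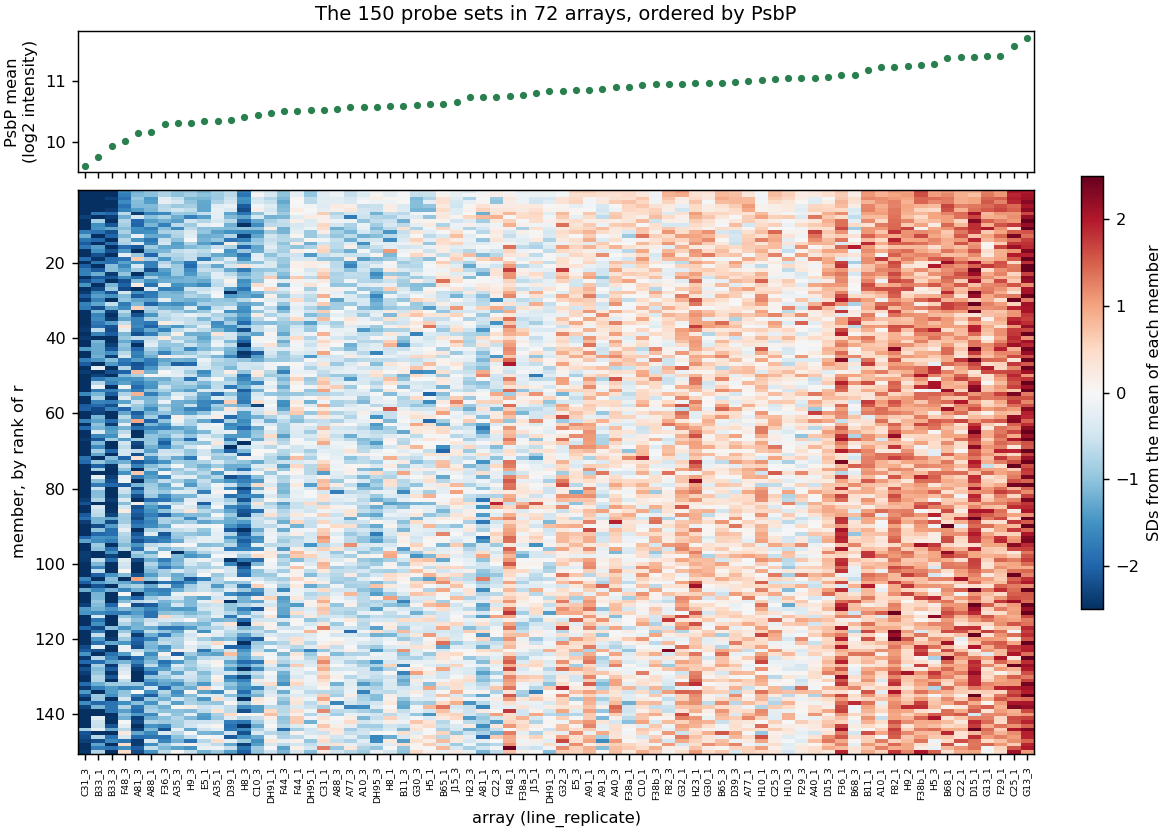
Upper panel: PsbP mean (log2 intensity) in each of the 72 arrays, ordered by that value. Lower panel: the 150 members, ordered by r with PsbP, in the same arrays, as SDs from each member's mean (colour scale from -2.5 to 2.5). The colours turn from blue to red along the arrays in nearly all rows, and the replicate 3 arrays of C31 and G13 are the ends.

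A few arrays held the extremes of most members. The replicate 3 array of C31 was the lowest of all 72 for 81 members, the replicate 3 array of B33 for 25, the replicate 1 array of B33 for 20 and the replicate 3 array of A81 for 10. At the top, the replicate 3 array of G13 was highest for 68 members, the replicate 1 array of C25 for 21 and the replicate 1 array of D15 for 19. Taken as line means, B33 was the lowest line for 101 members, A81 for 35 and C31 for 9, while G13 was the highest for 81, D15 for 32 and C25 for 14. The median r of the members stayed at 0.7595 without the 3 farthest arrays.

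By line, the mean of the members ran from 7.84 in B33 to 9.40 in G13. After B33 came A81 and C31 with 8.17 each and H8 with 8.27, and below G13 came D15 with 9.26, C25 with 9.11 and F82 with 9.08. Arrays of a line differed by a median of 0.434 log2 units, and by up to 1.35 in C31. In F36 they read 9.32 and 8.19. Neighbouring lines in this order lay closer than that, so the order between neighbours is not resolved. The intraclass correlation of the members' mean was 0.189, with a residual SD of 0.374. Over the 36 lines, the members' mean in replicate 3 had an r of 0.334 with that in the other array of the line, and of 0.435 in the 24 lines with matching arrays.

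**Figure D3:**
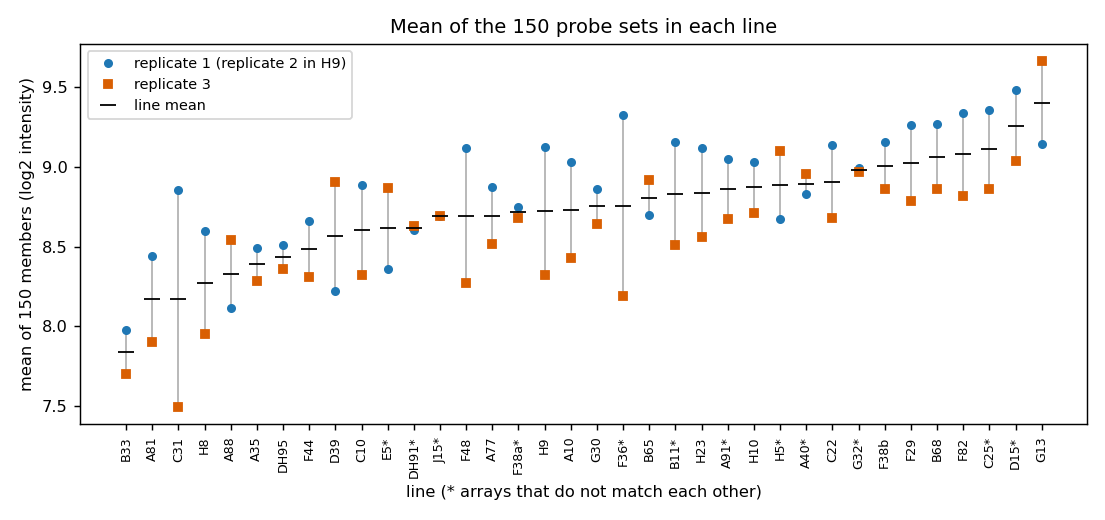
Mean log2 intensity of the 150 members in both arrays of each of the 36 lines, ordered by line mean (black dash); circles are replicate 1 (replicate 2 in H9), squares replicate 3, and an asterisk marks the 12 lines whose arrays do not match each other. Arrays of 1 line lie up to 1.35 apart, in C31, while the line means run from 7.84 to 9.40.

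Members differed in how steeply they moved. The slope per log2 unit of the PsbP mean ran from 0.438 to 2.11 with a median of 0.854, and 46 members exceeded 1. These slopes are of signal against the mean of 2 PsbP probe sets. A slope over 1 does not show that a transcript changed by more than that of PsbP. The range of line means had a median of 1.53 log2 units, against 0.923 for all probe sets ranked, and was at least 1 for 141 members. The widest belonged to TaAffx.118084.1.S1_at, with 4.07 between A81 (5.98 and 5.97 in its arrays) and G13 (9.43 and 10.67). This probe set also differed within lines, with 10.28 and 6.05 in F36 and 9.35 and 5.89 in C31, and its residual SD was 1.02. Its companion TaAffx.118084.1.S1_x_at spanned 3.86, TaAffx.52008.1.S1_at 3.24, TaAffx.13113.2.S1_s_at 3.18 and TaAffx.109294.1.S1_s_at 3.09.

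At the narrow end, the line means of LOC543248 (Ta.166.1.S1_a_at) spanned 0.86, from 10.90 in B33 to 11.76 in C25. Those of Ta.28895.1.S1_s_at spanned 0.88, of Ta.14433.1.S1_at 0.91, of Ta.1988.1.S1_x_at 0.92 and of TaAffx.7134.1.S1_x_at 0.93. Mean levels of members ran from 6.08 to 13.22. Ta.304.2.S1_a_at had a mean of 13.22, Ta.304.2.S1_x_at 12.98 and LOC543332 12.91, while TaAffx.128578.1.S1_at had 6.08 and TaAffx.23736.1.S1_s_at and TaAffx.25555.3.S1_s_at each had 6.14, close to the limit of 6 that the rule set.

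The designs of the members' probe sets are given beside those of all probe sets ranked, with no test. Affymetrix names a probe set with the suffix a when its probes match several transcripts of one gene, s when they match several genes, and x when some probes may match other sequences. One of these suffixes was carried by 104 of 150 members (69.3%), against 34.5% of the 25390 probe sets ranked. By suffix, the shares were 24.7% against 10.9% for a, 16.7% against 6.87% for s, and 28.0% against 16.8% for x. In orientation, 1 member (Ta.1654.3.A1_a_at, 0.667%) had the letter A that marks the reversed orientation of the source sequence, against 19.0% of the probe sets ranked. Wheat has near-identical gene copies on its subgenomes, and how far a member reads several copies was not tested. Probe sets that share probes are not independent members.

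Many members carried a later number within their transcript cluster. Of the 91 members with names in Ta, 61 (67.0%) carried a number of 2 or more within their cluster, against 29.8% of such probe sets ranked. The 150 members came from 134 clusters, 15 of which gave more than 1 member, and Ta.20639 gave 3. Members of one cluster were close copies of each other, as with r = 0.996 between the Ta.1139 pair and at least 0.883 among the 3 of Ta.20639. A further 143 ranked probe sets from 72 of these clusters were not members. Their r with PsbP had a median of 0.379 and ran from -0.532 for TaAffx.25555.1.S1_at to 0.760, with 57 over 0.5 and 25 below 0. Ta.4302.1.S1_at, for example, had -0.457 while its cluster gave 2 members.

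The link with PsbP was read at several levels of the data. Over the 36 line means the members' r had a median of 0.826 (0.744 to 0.957), against 0.117 for all probe sets ranked. Over the 36 differences between the arrays of a line, in which the genotype of a matched line cancels, it had a median of 0.716 (0.514 to 0.894), against 0.0721. With the mean of the hybridisation day taken out it was 0.757 (0.621 to 0.920), against 0.132. With the 3 prime to 5 prime ratio regressed out it was 0.664 (0.550 to 0.914), against 0.0933, and all 150 members stayed above 0.5 with either the day or the ratio removed. All of these levels use the arrays that chose the members. The lowest r with the day removed belonged to Ta.9620.1.S1_s_at (0.621), TaAffx.111898.1.S1_s_at (0.671) and TaAffx.131076.1.S1_s_at (0.673).

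**Figure D4:**
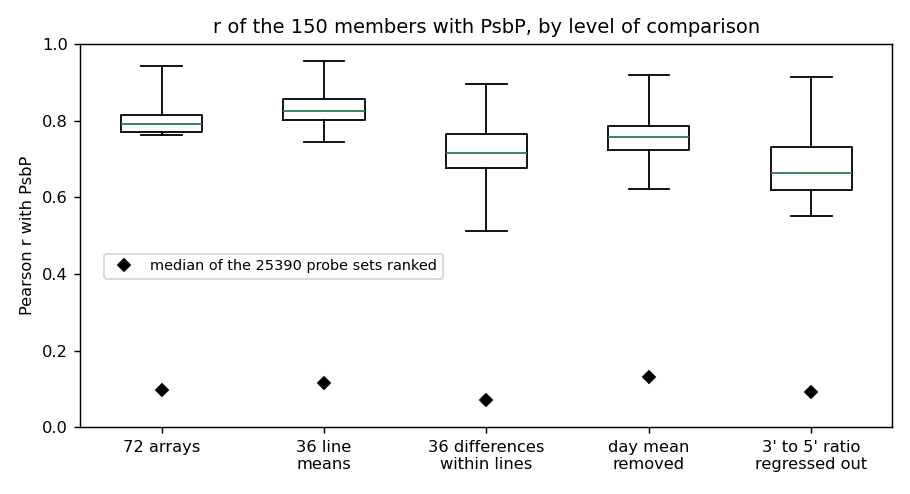
Pearson's r of the 150 members with the PsbP mean over 72 arrays, over 36 line means, over 36 differences within lines, and over 72 arrays with the day mean removed or the 3 prime to 5 prime ratio regressed out; boxes show quartiles and median, whiskers the lowest and highest member, diamonds the median of all 25390 probe sets ranked. The medians of members lie between 0.664 and 0.826 and those of all probe sets between 0.0721 and 0.132.

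To read r in arrays that had no part in the choice, the rule was applied to one replicate number and the result read in the other. The 150 probe sets chosen over the 35 replicate 1 arrays had a median r of 0.732 in the 36 replicate 3 arrays, with a range from 0.0691 to 0.935, and 135 of them exceeded 0.5, against 16.3% of all probe sets ranked. Those chosen over the replicate 3 arrays had a median of 0.693 in replicate 1, from 0.357 to 0.945, with 143 over 0.5 against 9.95%. The lists themselves were less stable, since 82 and 87 of their probe sets were among the 150 members, and 43 were on both lists. Arrays of both replicate numbers come from the same lines, so they are not fully independent.

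Part of the correlation between members remained once the PsbP mean was regressed out. Among the 11175 pairs of members the median r was 0.734, and after the PsbP mean was regressed out of each member it was 0.253, with a range from -0.658 to 0.969. After the 3 prime to 5 prime ratio was regressed out instead, the median between pairs was 0.594. These are descriptions over 72 arrays. They include pairs from the same cluster, and no such value was taken for other probe sets, so nothing particular to the members is read from them.

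In the test for differences between lines, 6 of the 150 members passed an adjusted p under 0.05 (4.00%, limma moderated F-test, Benjamini-Hochberg over 61179 probe sets), beside 2.54% of all probe sets tested and 4.09% of those with a mean of 6 or more. At an unadjusted p under 0.05 it was 54 members, beside 13.9% and 19.5%. As the rule used these array values, nothing is read from these shares. The 6 members, named after their values were seen, all had their lowest line mean in B33. They were Ta.2742.3.S1_x_at, Ta.2742.3.S1_a_at, Ta.9666.3.S1_a_at, Ta.3590.1.S1_s_at, Ta.28363.2.S1_a_at and Ta.28361.3.S1_x_at. Counts under other settings follow for the members alone. No share over all probe sets stands beside them, so nothing particular to the members is read from them. Without the 3 farthest arrays 0 passed, and without the replicate 3 array of B33 1 did. The count was 16 without the replicate 1 array of C31, 10 without the replicate 3 array of B65 and 12 without either array of H5. With the hybridisation day as a block 3 passed, and without the 12 lines whose arrays do not match 12 did. Adding the 3 prime to 5 prime ratio to the fit left 1 member. The ratio in B33 was 1.00 in replicate 1 and 1.64 in replicate 3, beside a median of 0.977 over the arrays. The part of the ratio in these calls was not tested.

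The smallest adjusted p of these was 0.0122 for Ta.3590.1.S1_s_at in limma, with line means from 9.67 in B33 to 10.93 in G13 and a residual SD of 0.225. Its arrays read 9.97 and 9.36 in B33 and 10.76 and 11.10 in G13. These lines were picked as the lowest and highest for this probe set, so their lack of overlap is not evidence of a difference. In C31 its arrays spread from 10.25 to 9.35. Ta.28361.3.S1_x_at had the widest range of the 6, from 8.68 in B33 to 11.07 in F82. Its arrays read 9.37 and 7.99 in B33 and 10.90 and 11.25 in F82. None of the annotated members passed, and the closest was LOC100037649 with an adjusted p of 0.0559 in limma, from 11.29 in B33 to 12.26 in G13.

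A second line test asked whether a member differed between lines beyond what PsbP accounted for, with the PsbP mean of each array as a covariate. Members were chosen for their closeness to PsbP, so this covariate takes out much of their variance by the rule. Nothing is read from the shares called. Here 0 of 150 members passed in limma, beside 2.13% of all 61179 probe sets and 3.52% of those with a mean of 6 or more, and 13 members (8.67%) had an unadjusted p under 0.05, beside 10.8% and 15.4%. The smallest adjusted p in limma belonged to Ta.2746.3.S1_x_at (0.119), whose line means ran from 7.94 in B33 to 9.95 in G13. Ta.4170.2.S1_x_at followed with 0.177 and Ta.10162.1.S1_at with 0.220. The largest was 0.997 for Ta.5516.2.S1_x_at. For the reference genes the adjusted p in this limma test was 0.874 for PsbO, 0.606 for petC probe set Ta.861.1.S1_at and 0.497 for Trx-M. A p that misses the threshold does not show that lines did not differ.

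Members were lower in replicate 3 than in replicate 1. Over the 35 lines with both, the shift was below 0 for 148 of 150 members, while it was above 0 for 47.6% of all probe sets and 41% of those with a mean of 6 or more. Its median over members was -0.242 log2 units, beside -0.00435 over all probe sets and -0.0256 over those with a mean of 6 or more. In limma, comparing within lines, 43 members passed as lower (28.7%), beside 1.98% and 3.68%, and 0 as higher, beside 0.616% and 0.953%. At an unadjusted p under 0.05 in either direction it was 126 members, beside 18.5% and 26.5%. The mean of the members was lower in replicate 3 in 26 of the 35 lines. The count of 43 rested on single lines too, with 18 without B11 and 72 without D39 as its ends.

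TaAffx.13113.2.S1_s_at had the largest shift, -0.80 (SE 0.21, limma adjusted p = 0.0313, higher in replicate 3 in 11 of 35 lines). Among the members with the highest r, the shift was -0.40 for Ta.6416.2.S1_a_at (limma adjusted p = 0.0297) and -0.28 for Ta.27646.1.S1_at (0.0404), while it was -0.21 for Ta.1139.1.S1_at (0.201). LOC543069 shifted by -0.23 (limma adjusted p = 0.0368), and the other 9 annotated genes did not pass. The PsbP probe sets had shifts of -0.10 (SE 0.05, limma adjusted p = 0.265) for Ta.85.1.S1_at and -0.23 (SE 0.09, 0.160) for TaAffx.120874.1.S1_x_at. As the members share array deviations with PsbP through the rule, the count is a description.

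The hybridisation day moved with the replicate number. With the day as a block, 0 members passed in limma, at an adjusted or an unadjusted p under 0.05. Only 3 of the 12 days held both replicate numbers, so that fit cannot tell the day from the replicate number. No share over all probe sets stands beside this 0, and nothing is read from it. Of the 12 days, 5 held replicate 3 arrays and none of replicate 1, and 4 held none of replicate 3. In the 3 days with both, the mean of the members in replicate 3 minus replicate 1 was -0.107 (3 and 4 arrays), -0.0818 (4 and 3 arrays) and 0.182 (5 and 3 arrays). The arrays compared within a day were mostly of different lines. These few differences are thus not paired by line, and nothing is read from them. Adding the 3 prime to 5 prime ratio to the fit left 6 members, again without a share over all probe sets beside it. With the PsbP mean as a covariate 0 passed in limma, beside 0.00163% of all probe sets in each direction and, of those with a mean of 6 or more, 0.00394% as lower and 0% as higher. In that fit 50 members had an unadjusted p under 0.05, beside 11.9% and 15.8%. The shift was above 0 for 19 members, beside 47% and 44.6%. As the rule chose the members by PsbP, these counts are descriptions.

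The control-gene ratio ran against the members. All 150 had an r below 0 with the 3 prime to 5 prime ratio over the 72 arrays, from -0.901 to -0.162 with a median of -0.624, beside a median of -0.00377 over all probe sets ranked. The mean of the members had an r of -0.738 with the ratio (Spearman's rho -0.687), of -0.714 without the 2 arrays farthest from its median, of -0.734 with the day mean removed and of -0.754 in the lines with matching arrays. The PsbP mean itself had -0.632. Within the 8 days that held 6 or more arrays, the r of the members' mean with the ratio lay between -0.979 and -0.197. The mean of the members had an r of 0.0783 to 0.843 with the 5 prime probe sets of the 7 control genes. With the 3 prime ones it was -0.213 to 0.446. The low ends belonged to probe sets with means below 6, ef1a 5 prime (4.70) and gapdh 3 prime (4.09). The 3 prime probe sets of actin (4.94) and ef1a (5.66) were also below 6, and all of these enter the ratio. The part of RNA integrity in the pattern of the members was not tested. Members differed in this respect, as r with the ratio was -0.308 for Ta.1988.1.S1_x_at and -0.842 for TaAffx.109294.1.S1_s_at.

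**Figure D5:**
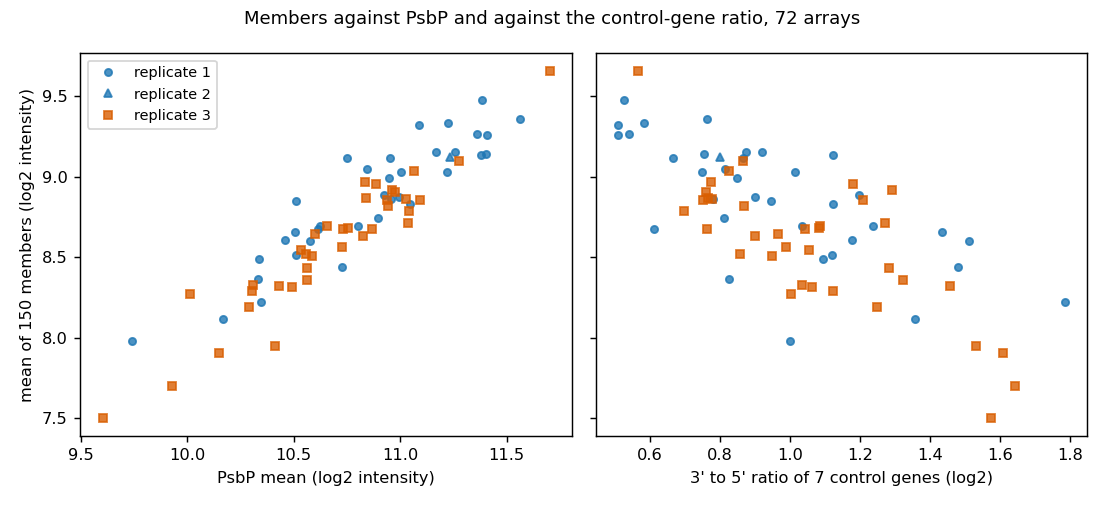
Mean log2 intensity of the 150 members in each of 72 arrays against the PsbP mean (left, log2 intensity) and against the 3 prime to 5 prime ratio of 7 control genes (right, log2). Marker shape and colour give the replicate number. The members' mean rises with PsbP (r = 0.927) and falls as the ratio rises (r = -0.738).

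Marker genes of seed tissues were set beside the mean of the members. Of the 8 green-layer probe sets with a mean of 6 or more (PsbP, PsbO, petC, FBP, PRK and Trx-M), 7 had an r above 0 and the median was 0.658, and the list mean ran from 9.26 to 10.30 over arrays. These include PsbP itself, which chose the members. Of the starchy endosperm, AGP-S had 0.576, the granule-bound starch synthase Wx-A1 (LOC543395) 0.0797, and the glutenin probe set above 6 had 0.182, while the mean of the list of 13 probe sets ran from 4.93 to 5.40. The embryo list had 1 of 9 probe sets above 6, rab (LOC543293), with -0.482, and its list mean ran from 4.30 to 4.92. The peroxiredoxin PER1 of the aleurone, LOC543108, had 0.368 in the 1 of 17 probe sets of its list above 6.

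The 27 probe sets of histones and tubulins above 6, which mark dividing cells, had a median r of 0.0559 with the members' mean, from -0.292 to 0.680, and the highest was a TUBA probe set, Ta.812.1.S1_x_at. The heat-response genes hsp16.9A and FKBP70 had -0.0284 and 0.0339, although hsp16.9A spanned 3.78 to 13.57 over the same arrays. No probe set of the endosperm, embryo, aleurone, dividing-cell or heat-response lists was a member. Those of the green-layer list could not be members, because the rule left these genes out before ranking. The part of tissue makeup in the pattern was not tested.

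Outside the members, annotated probe sets with a mean of 6 or more that were most like the members' mean over 72 arrays were Ta.3475.2.S1_at (LOC780687, r = 0.870), Ta.14289.2.S1_a_at (LOC100037638, 0.869), Ta.28299.2.S1_at and Ta.28299.2.S1_x_at (LOC100049047, 0.854 and 0.852) and Ta.28514.2.S1_s_at (LOC780602, 0.830). Their r with PsbP itself was lower, from 0.679 to 0.746, which kept them off the list. The most opposed was LOC100125710 (Ta.29478.1.S1_at), with -0.647.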

How the data were processed

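Each sample was hybridised to 1 one-colour Affymetrix wheat array. The authors deposited 1 intensity per probe set and array, not log transformed, between 6.025 and 29610. The submitters' processing notes name RMA, without saying whether the arrays were processed jointly. Array medians lay between 39.9 and 43.6, and the number of arrays, not a depth, limits the precision.

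Here log2 was taken with a pseudocount of 0, and no further scaling was applied. The members, gene lists and rules for named genes were chosen with earlier results of these data known. Lines were compared in limma 3.58.1 (R 4.3.3) with 1 mean per line and a moderated F-test, and replicate 3 with replicate 1 in the 35 lines with both, with the line as a block. Both were repeated with the PsbP mean as a covariate. Benjamini-Hochberg adjustment ran over all 61179 non-control probe sets at an adjusted p under 0.05. The tests were checked on simulated data. P-values measure the spread between arrays. The replicate 3 array of G32 is assigned to its line by its title alone. Hybridisation days came from the record of each array run. The alternatives were quantile normalisation, median centring, a pseudocount of 16, other limits on the mean level, Spearman's rho, line means and within-line differences, single replicate numbers, day, ratio and replicate blocks, each PsbP probe set alone, and leaving out arrays or lines.

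Named were all annotated members, the 10 with the highest r, those at the threshold, the 5 widest and 5 narrowest in line range, those at the ends of the PsbP-adjusted line test, the 3 highest and 3 lowest in level, and the 3 with the lowest r once the day was removed. No sequences are shown and no promoter motifs were searched, as no sequence table was used here.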

Additional observations from a re-analysis of the deposited data

How the results depend on the processing

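Applying the rule under other settings kept 107 (with line means) to 148 of the 150 members with quantile normalisation, median centring, a pseudocount of 16, Spearman's rho, another limit on the mean level, or line means, or without the unmatched lines or the 3 farthest arrays. It kept 82 with replicate 1 alone, 87 with replicate 3 alone, 94 with the day removed, 57 with the 3 prime to 5 prime ratio regressed out and 80 over within-line differences. When PsbP was read by 1 probe set, it kept 64 with Ta.85.1.S1_at and 109 with TaAffx.120874.1.S1_x_at. Both settings were chosen after seeing the data. The r of these probe sets with the members' mean was 0.812 and 0.942, so the list followed the x probe set more closely. The median r of the members was 0.7471 with quantile normalisation, 0.664 with the ratio regressed out, 0.7165 over differences and 0.6921 with Ta.85.1.S1_at alone. Without 1 array, 129 to 150 members and a median r of 0.768 to 0.7957 were kept.

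The line test called 6 members, but 3 with the day as a block, 1 with the ratio, 12 without the 12 unmatched lines and 0 without the 3 farthest arrays. Without 1 array it called 1 (without the replicate 3 array of B33) to 16 (without the replicate 1 array of C31), with 10 without the replicate 3 array of B65 and 12 without either array of H5. With PsbP as a covariate it called 0, and 0 to 1 without 1 array, the 1 arising without either B68 array or the replicate 1 array of H8. The replicate comparison called 43, but 0 with the day, 6 with the ratio, 13 with no line block and 19 without the unmatched lines. Leaving out 1 array drops its line, and gave 18 to 72. It gave 18 without B11, 19 without F48 or H23, 20 without C31 or F82, 24 without A77, 25 without A35 or H8, 26 without C22, 27 without A10, A81 or F44, 28 without A91 or F36, 68 without H5, 69 without G13 and 72 without D39. With PsbP as a covariate the comparison called 0, but 5 with quantile normalisation and 2 with no line block, and 0 to 0 without 1 array. The cause of these changes was not tested. No share over all probe sets stands beside the counts of this paragraph, so they do not show a change particular to the members.

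Whether replicate numbers pair arrays across lines is not given by the labels. The difference between replicate 3 and replicate 1 correlated above 0.1 with the mean difference of the other lines in 23 of 35 lines (r from -0.345 to 0.672), so the numbers were not taken as pairs. With the replicate block the line test called 11 members in place of 6, and 0 in place of 0 with PsbP as a covariate.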
